A study of Arabidopsis thaliana with 8 samples.

Results

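Adding 35S:GIF1 to rGRF3 was measured by setting 2 arrays of rGRF3x35S:GIF1 against 2 arrays of rGRF3, which are 4 of the 8 Affymetrix ATH1 arrays of the series. rGRF3x35S:GIF1, here called the double line, is labelled an overexpressor of both GRF3 and GIF1, and rGRF3 is labelled an overexpressor of GRF3. The other 4 arrays, 2 of 35S:GIF1 (labelled a GIF1 overexpressor) and 2 of Col-0 (wild type), entered the estimate of the spread and the comparison between backgrounds. Arrays were matched to the lines by their titles, and both lines carry rGRF3, so by their labels they differ in the added 35S:GIF1. In published work rGRF3 denotes a GRF3 whose messenger microRNA miR396 does not cleave, and 35S is a viral promoter active in most plant tissues. All plants stood on soil in 8 h of light and 16 h of dark at 23 °C, and their vegetative apices were dissected with the leaf primordia at 20 days. The labels give each array the letter A or B and say neither how many plants were pooled, nor whether the letters are separate growths, nor how many transformants each line stands for. The p-values below measure the spread between these arrays alone, and that spread may be technical. Of 22810 probe sets 14005 were tested, namely the non-control ones whose log2 signal reached 4 on 2 or more of the 8 arrays. Of these, 7599 have exactly 1 gene in the annotation used.

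GRF proteins are plant transcription factors that keep cells of young leaves dividing, and miR396 restrains them as the leaf matures. GIF1, also called AN3, does not bind DNA itself. It is a co-activator that joins GRF proteins through their QLQ domain and brings the SWI/SNF chromatin remodelling complex to their targets. Raising both partners together is known to enlarge Arabidopsis leaves more than raising either alone.

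Markers of leaf primordia and photosynthetic leaf were detected on all arrays, and the meristem markers with a named probe set were not above the floor. YAB3, a transcription factor of the lower side of leaf primordia, had log2 signals of 8.89 and 8.73 on the A and B arrays of the double line, and of 8.74 and 8.4 in rGRF3. The light-harvesting gene LHCB4.1 had 14.22 and 14.24 in the double line and 14.12 and 14.1 in rGRF3. The meristem markers CLV3 and UFO were at 2.12, the floor of the processed values, on all 8 arrays. SAG29, a marker of senescing leaf, was at 2.12 and 5.99 in the double line, against 2.12 and 3.37 in rGRF3 and at most 2.14 on the other 4 arrays. It did not enter the tests, and its level on array B of the double line was not tested for a part in the results below. No floral or root marker had a named probe set. Array medians ran from 5.9 to 5.97. The probe set for 25S ribosomal RNA, a control of the array outside the tests, had 10.9 and 6.34 in the double line and 8.23 and 6.76 in rGRF3, and lay between 6.22 and 7.88 on the other arrays. Array A of the double line thus had the highest signal of the 8 for that control.

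1 probe set passed the test in the comparison of the double line with rGRF3. Probe set 246103_at, which has no single gene listed in the annotation, had log2 signals of 13.84 and 13.33 in the double line, against 9.12 and 8.6 in rGRF3. The groups lay far apart, at 13.58 ± 0.36 in the double line and 8.86 ± 0.37 in rGRF3 (SD, n = 2 each). The difference was 4.72 ± 0.27 (SE), a 26.4-fold higher signal, with an adjusted p of 0.0276 in limma over all tested probe sets and Benjamini-Hochberg adjustment at 0.05. It was 4.71 between the A arrays and 4.73 between the B arrays. In 35S:GIF1 it had 15.28 and 14.84, against 9.14 and 9.23 in Col-0, so it was high on the 4 arrays that carry 35S:GIF1 and between 8.6 and 9.23 on the other 4. Whether it measures GIF1 cannot be told from the annotation, and no named probe set gives the level of GIF1 or GRF3. With the letter fitted as a replicate block the call held on all 8 arrays (adjusted p = 0.00249) and on the 4 arrays of these lines alone (adjusted p = 0.0253). Without the block it did not hold on those 4 arrays (adjusted p = 0.691), without the filter (adjusted p = 0.156) or after leaving out any 1 array (adjusted p between 0.121 and 0.389). The difference stayed between 4.46 and 4.99 throughout.

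That call is 0.00714% of the 14005 tested probe sets, and the share was also 0.00714% with the letter fitted as a replicate block. Apart from 246103_at, the lowest adjusted p was 0.438, shared by STZ and by 254926_at, which has no single listed gene, and it was 0.345 for both with the block. 254926_at, given here after its values were seen, had 5.49 and 5.89 in the double line, against 7.18 and 7.19 in rGRF3. At an unadjusted p under 0.05 there were 177 probe sets, or 654 with the block. The letters A and B gave mostly unlike differences. The difference between the lines had an SD of 0.34 (log2) between the A arrays and 0.31 between the B arrays, and it went the same way in both letters for 50.9% of probe sets. Its Pearson correlation between the letters was 0.105 across probe sets, or 0.0916 without 246103_at, which is a description, since genes are not independent replicates. In both letters 27.5% of probe sets were higher in the double line and 23.4% were lower. With 2 arrays a line, an exact permutation test of a single gene cannot go below p = 0.333, so the values below are given per array and as differences within each letter, with limma's standard errors. Unless stated otherwise these come from the fit without the block, which counts a shift shared by the arrays of a letter as spread. The median SE was 0.21 without the block and 0.15 with it.

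**Figure D1:**
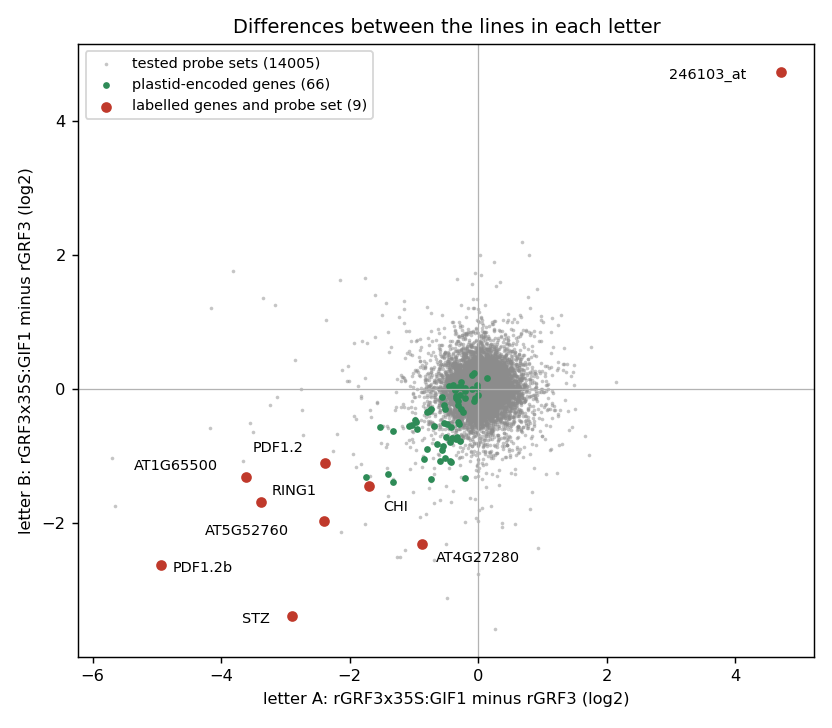
Difference between rGRF3x35S:GIF1 and rGRF3 on the log2 scale in letter A (x axis) and letter B (y axis), 1 point per tested probe set. 246103_at stands alone at 4.71 and 4.73, STZ and PDF1.2b are the lowest by the smaller of their letter differences, and most of the 66 plastid-encoded genes (green) lie below 0 on both axes.

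Lower signals of at least 2-fold in both letters were more frequent than higher ones. They were found for 26 probe sets, which is 0.186% of those tested, while at least 2-fold higher signals in both letters were found for 4, or 0.0286%. In single letters the counts were 74 higher and 126 lower between the A arrays and 63 higher and 113 lower between the B arrays, and 15 probe sets were 2-fold apart in opposite directions. Of the 26, 11 have exactly 1 gene listed, and 3 of those are plastid genes. Of the 4, AT5G62150 is the only one with exactly 1 gene listed. The smaller of the letter differences was 1.0 for 258907_at, just inside the 2-fold limit, and 0.98 for AT5G04670 and 257922_at, just outside it. On the lower side it was -1.02 for 248964_at and 266385_at and -0.99 for AT1G72940.

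Genes of defence and of early stress responses were among the named ones with lower signal in the double line. Lower signal in apices with primordia can come from fewer cells of a type or from less RNA per cell, and the arrays cannot tell these apart. STZ, also called ZAT10, is a zinc-finger repressor that is induced quickly by touch, wounding, cold and salt. It had log2 signals of 2.5 and 2.15 in the double line, against 5.39 and 5.52 in rGRF3. The double line's values lay close to the floor of 2.12 and all of rGRF3's lay well above it. The difference was -3.13 ± 0.33 (SE), an 8.78-fold lower signal whose size depends on that floor, with an adjusted p of 0.438 in limma and 0.345 with the block. In 35S:GIF1 STZ had 2.53 and 3.27, against 6.44 and 5.74 in Col-0, so the 4 arrays with 35S:GIF1 were all below the 4 without it. AT4G27280 had the same order. It had 7.49 and 7.01 in the double line and 8.37 and 9.32 in rGRF3, a difference of -1.6 ± 0.39, and 8.04 and 7.56 in 35S:GIF1 against 9.71 and 9.11 in Col-0.

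The plant defensins PDF1.2 and PDF1.2b are small antifungal peptides whose genes respond to jasmonate and ethylene. The PDF1.2b probe set had 3.96 and 3.86 in the double line, against 8.89 and 6.48 in rGRF3. This was the largest mean difference below 0 among the tested probe sets, at -3.77 ± 0.92 (SE, adjusted p = 1.0 in limma). The arrays of the double line lay close together (SD 0.07), while those of rGRF3 had an SD of 1.7 around a mean of 7.68. PDF1.2 had 5.72 and 5.42 in the double line, against 8.1 and 6.51 in rGRF3, a difference of -1.74 ± 0.54. The PDF1.2b probe set is of a kind (suffix x) that can pick up related transcripts, so the defensin genes may share signal. Both probe sets were also lower in 35S:GIF1 than in Col-0 in both letters, with PDF1.2 at 5.62 and 5.06 in 35S:GIF1 against 6.81 and 6.17 in Col-0. PDF1.2b had 3.78 and 3.35 in 35S:GIF1 against 5.84 and 3.78 in Col-0, so its letter B difference was only -0.43 at low signal. The B array of Col-0 lay below both arrays of the double line for PDF1.2b, and rGRF3 had the highest mean of the 4 genotypes.

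RING1, a ubiquitin ligase of pathogen-triggered cell death, had 3.49 and 5.3 in the double line, against 6.87 and 6.99 in rGRF3. The rGRF3 arrays were close to each other and the double line's were not, and the difference was -2.53 ± 0.8. In 35S:GIF1 RING1 had 5.06 and 4.49, against 3.88 and 5.88 in Col-0, so the letters went opposite ways there. CHI, a chitinase, had 3.61 and 5.16 in the double line and 5.31 and 6.6 in rGRF3, so it was lower within each letter although the groups nearly met. AT2G43590, listed here with the chitinases by its locus, had 6.84 and 5.3 in the double line and 7.91 and 6.48 in rGRF3, and the groups overlapped. AT1G65500 had 2.32 and 5.21 in the double line, against 5.94 and 6.52 in rGRF3, and AT5G52760 had 3.54 and 5.02 against 5.94 and 6.98. The lines did not overlap for AT1G65500 or AT5G52760, but the 2.32 of AT1G65500 lay close to the floor. The Col-0 arrays alone spread from 2.42 to 6.95 for AT5G52760, from 3.61 to 6.35 for AT1G65500 and from 3.97 to 6.66 for CHI. AT1G72940, AT3G04640 and AR781 were lower by smaller amounts, with mean differences of -1.04, -1.02 and -0.96.

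**Figure D2:**
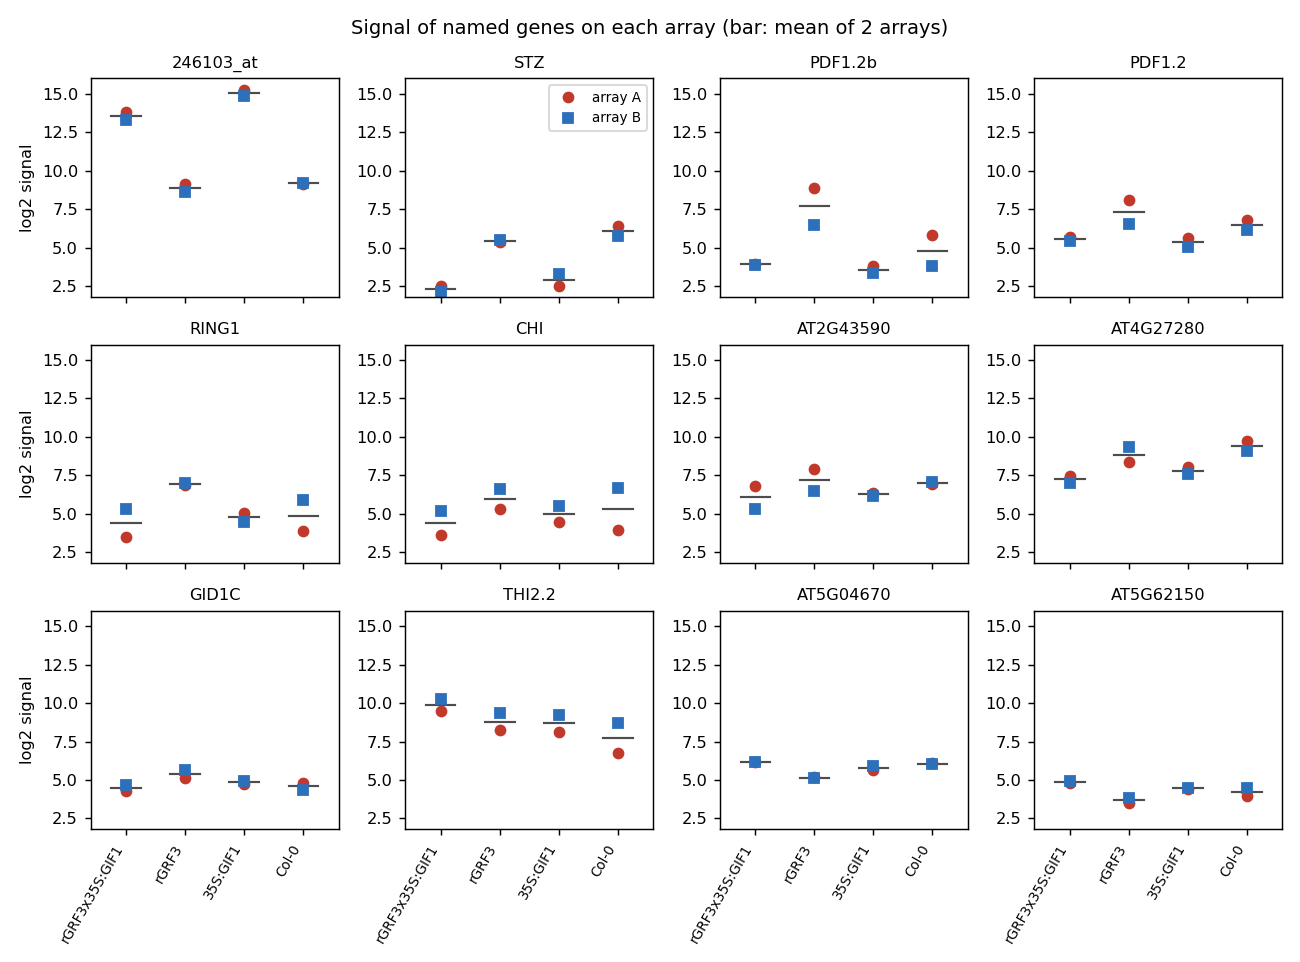
Log2 signal of 12 named genes and probe sets on each of the 8 arrays, in the order rGRF3x35S:GIF1, rGRF3, 35S:GIF1, Col-0, with array A as circles, array B as squares and the mean of both as a bar. STZ is at 2.5 and 2.15 in rGRF3x35S:GIF1, against 5.39 and 5.52 in rGRF3, and AT5G04670 is at 6.15 and 6.19 against 5.17 and 5.15.

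No gene of the defence and stress lists passed the limma test, with or without the block. Of 25 defence genes written by locus, 3 had a tested named probe set. PDF1.2 and PDF1.2b were lower in both letters, and the thionin THI2.2, an antimicrobial peptide, was higher in both. Of 6 tested chitinases, from 14 written, 3 were lower and 2 were higher in both letters, with a median difference of -0.37. In both letters AT1G02360 was higher, by 0.25 and 1.89, and so was AT2G43620, by 0.37 and 0.15. Of 35 early touch and wound genes written by locus, 4 had a tested named probe set. Of these only STZ was lower in both letters, and the other 3 went opposite ways, among them WRKY53 at -1.03 and 0.2. Of 5 tested WRKY transcription factors 4 went opposite ways. Over all tested probe sets the median was 0.01, with 27.5% higher and 23.4% lower in both letters.

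Most genes of the plastid genome had lower signal in the double line than in rGRF3. That genome encodes core subunits of the photosystems, of the cytochrome b6f, ATP synthase and NDH complexes, of Rubisco, of plastid ribosomes and of a plastid RNA polymerase. Of its 66 tested genes 52 were lower in both letters, 1 (psbF) was higher in both and 13 went opposite ways, where 23.4% of all tested probe sets were lower in both letters. None passed the limma test. At an unadjusted p under 0.05 there was 1 of the 66, against 177 of all 14005. With the block there were 35 of the 66, against 654 of all 14005, and none of the 66 had an adjusted p under 0.984. Their median difference was -0.51, with -0.43 between the A arrays and -0.4 between the B arrays. These genes lie on 1 small genome and many share a transcript, so they are not independent of each other. The list was known from earlier results of these data to stand out.

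The lower plastid signals were found in every complex. Photosystem I, with ycf3 and ycf4 counted in beside the psa genes, had 7 of 7 genes lower in both letters, with a median of -0.54. Its iron-sulphur subunit gene psaC had 7.2 and 6.66 in the double line, against 8.53 and 8.06 in rGRF3. The groups did not overlap, and the difference was -1.36 ± 0.47 (SE). Photosystem II had 9 of 15 genes lower and 1 higher in both letters, with a median of -0.34. Within it the antenna gene psbB had 7.71 and 6.83 in the double line, against 9.46 and 8.13 in rGRF3. The difference was -1.53 ± 0.81, with an SE of 0.32 in the fit with the block. psbT, its neighbour in the same transcription unit, had 6.07 and 4.65 against 7.47 and 5.92. By contrast psbE, psbF, psbL and psbJ, the genes of another shared transcript, had mean differences of 0.09, 0.15, 0.06 and 0.0. On the rGRF3 arrays their signals lay between 10.13 and 12.96, above those of psbB and psbT. The median was -0.27 for 5 cytochrome b6f genes and -0.68 for 6 ATP synthase genes, and here atpI had 5.92 and 5.39 in the double line and 6.76 and 6.43 in rGRF3.

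The genes of the NDH complex, which cycles electrons around photosystem I, had a median of -0.73 over 9 genes, 7 of them lower in both letters. ndhD had 10.27 and 8.89 in the double line, against 11.01 and 10.22 in rGRF3. The 4 genes of the plastid-encoded RNA polymerase had the same median of -0.73, with rpoB at 5.33 and 4.83 in the double line and 6.87 and 5.39 in rGRF3. Plastid ribosomal protein genes were closer to 0, with a median of -0.25, although 12 of 14 were lower in both letters. The groups also differed in signal level. On the A and B arrays of rGRF3 the median level was 8.67 and 7.69 for NDH genes. It was 12.39 and 11.7 for ribosomal protein genes and 12.34 and 11.52 for ATP synthase genes, whose median difference was -0.68. A part of signal level in the size of these differences was not tested. rbcL, the large subunit of Rubisco, had 7.88 and 5.93 in the double line and 8.07 and 7.26 in rGRF3. Its letters differed in size, at -0.2 and -1.32. All 6 remaining genes, among them rbcL, accD and matK, were lower in both letters.

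**Figure D3:**
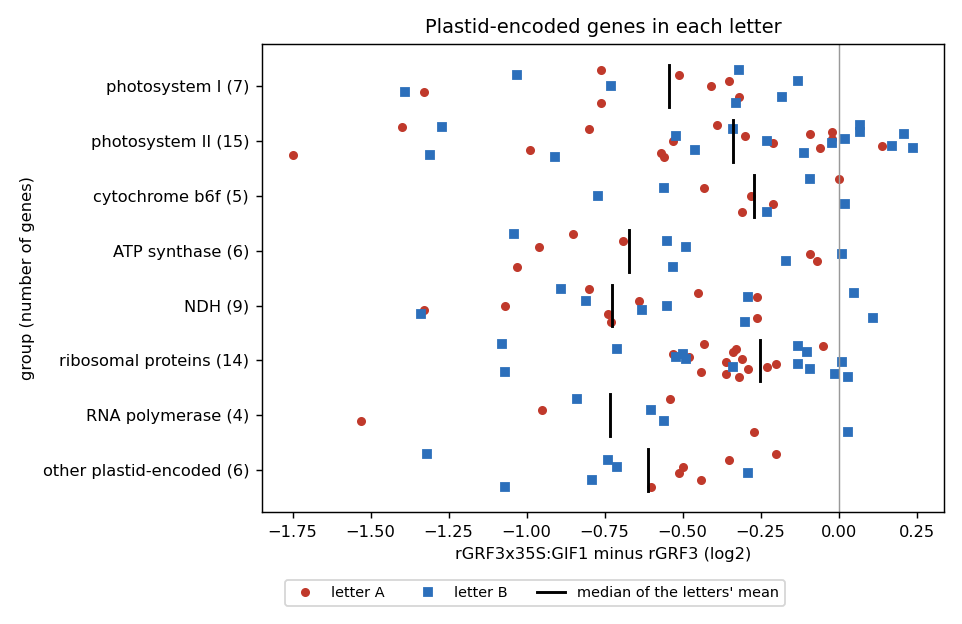
Difference between rGRF3x35S:GIF1 and rGRF3 (log2, x axis) for the 66 tested plastid-encoded genes by complex, with letter A as circles, letter B as squares and a vertical bar at the median of the genes' mean differences. Most points lie left of 0 in every complex, and the medians run from -0.73 (NDH and RNA polymerase) to -0.25 (ribosomal proteins).

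The few tested nuclear genes of photosynthesis did not show such a shift. Of 14 tested members, which encode light-harvesting proteins, photosystem subunits and assembly factors, 4 were higher in both letters, none was lower in both and their median was 0.05. Over all tested probe sets 27.5% were higher and 23.4% lower in both letters. LHCB4.1 differed by 0.1 and 0.14 and Rubisco activase (RCA) by 0.01 and 0.11 in letters A and B. Their signals were high, with rGRF3 means of 14.11 and 14.25. The plastid genes atpB, atpE and petB, with higher rGRF3 means than these, had mean differences of -0.12, -0.04 and -0.1. The nuclear and plastid genes were not matched in signal level. Of 5 tested chlorophyll synthesis genes, from 17 written, 2 (PORB and CHLI2) were higher in both letters and none was lower in both. The 25S ribosomal RNA control was higher in the double line than in rGRF3 in letter A (10.9 against 8.23) and lower in letter B (6.34 against 6.76). Its part in the plastid result was not tested. Between 35S:GIF1 and Col-0 the plastid median was 0.06 in letter A and -0.31 in letter B. The plastid signal also differed between the letters within a line, with medians of 11.15 and 10.69 on the A and B arrays of the double line and 11.55 and 11.03 in rGRF3. Leaving out 1 array therefore sets an A against a B array, and the median then ran from -0.86 (without rGRF3 B) to -0.07 (without the double line's B array).

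Named genes with higher signal in the double line differed by less than the lower ones. The 15 with the largest difference kept in both letters had mean differences between 0.69 and 1.21, and none passed the limma test. AT5G62150 had 4.79 and 4.96 in the double line, against 3.51 and 3.86 in rGRF3. The groups did not overlap and the difference was 1.2 ± 0.22 (SE, adjusted p = 1.0). THI2.2 had 9.5 and 10.29 in the double line and 8.26 and 9.33 in rGRF3, so it was higher within each letter while the groups overlapped. The highest mean difference among them was that of AT4G21870, with 8.74 and 9.49 in the double line, against 7.82 and 7.99 in rGRF3. AT5G04670 had 6.15 and 6.19 in the double line, against 5.17 and 5.15 in rGRF3, with an SD of at most 0.03 in either line and a difference of 1.01 ± 0.14. LTI30, a dehydrin that protects cells in cold and drought, had 4.9 and 7.17 in the double line and 4.11 and 6.32 in rGRF3. The letters lay farther apart than the lines for this gene, and its difference was 0.82 ± 1.02.

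LTI30 belongs to a list of cold and drought genes of which 4 of 17 had a tested named probe set. Of these, 3 were higher in both letters, namely LTI30, COR15A at 0.42 and 0.47 and COR47 at 0.39 and 0.27. The fourth, COR15B, went opposite ways, and the median was 0.39. None passed the limma test. COR15A, which protects chloroplast membranes in the cold, had 8.61 and 11.63 in the double line and 8.19 and 11.16 in rGRF3, so here too the letters differed more than the lines. The same was true of DFR, the dihydroflavonol reductase of anthocyanin synthesis, with 6.25 and 11.19 in the double line against 5.71 and 10.3 in rGRF3. Of 6 tested anthocyanin and flavonoid genes, from 16 written, 3 were higher in both letters and none was lower in both. The shares over all tested probe sets were 27.5% higher and 23.4% lower in both letters.

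Wall-loosening genes and microtubule genes gave small differences of both signs. Expansins and xyloglucan endotransglucosylases (XTH), which loosen the cell wall for growth, had a median of 0.29 over 16 genes, with 7 higher and 3 lower in both letters. For this and the counts that follow, 27.5% of all tested probe sets were higher and 23.4% lower in both letters. EXPA16 had 4.53 and 4.82 in the double line and 4.21 and 3.93 in rGRF3, while XTH19 had 4.97 and 3.61 against 5.69 and 4.17. The tubulins, the subunits of microtubules, had a median of 0.04 over 7 genes. TUB6 had 11.66 and 11.63 in the double line, against 11.45 and 11.38 in rGRF3, without overlap and with a difference of 0.23 ± 0.12. TRM proteins place the complex that orders microtubules, and of 10 tested TRM genes 6 were higher and 3 lower in both letters. TRM15 was higher by 0.56 and 0.6, and TRM24 was lower by -0.75 and -0.48. The trichome birefringence-like genes, which acetylate wall polysaccharides, had 7 higher and 3 lower in both letters of 14, with TBL38 at 7.81 and 7.77 in the double line and 7.37 and 7.27 in rGRF3.

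The tested cell-cycle and chromatin genes differed little, but most genes written for the mitotic, DNA replication and SWI/SNF lists had no tested named probe set. Of 33 mitotic genes written by locus, 5 had a tested named probe set. Of these, 4 were lower in both letters, against 23.4% of all tested probe sets, and the median was -0.18. The median was -0.3 between the A arrays but only -0.02 between the B arrays. The Aurora kinase gene AUR3, which works at chromosomes in division, had 6.82 and 6.54 in the double line and 7.36 and 6.56 in rGRF3, and AUR2 had 8.76 and 8.6 against 8.68 and 8.38. AUR1, BUBR1 and KINESIN-12B had mean differences of -0.17, -0.21 and -0.18. PRL, the 1 tested gene of the 8 written for the DNA replication list, differed by -0.25 and 0.23. The histone genes had a median of 0.0 over 7 and the SWI/SNF subunits a median of 0.0 over 5 tested of 13 written. BSH, a core subunit of SWI/SNF, had 9.09 and 8.32 in the double line and 8.89 and 8.23 in rGRF3.

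Among hormone genes GID1C stood lowest. GID1 proteins are the receptors of gibberellin, a hormone of elongation growth. GID1C had 4.28 and 4.68 in the double line, against 5.14 and 5.67 in rGRF3, without overlap and with a difference of -0.93 ± 0.26 (SE, adjusted p = 1.0 in limma). In 35S:GIF1 it had 4.77 and 4.92, against 4.8 and 4.38 in Col-0, so rGRF3 had the highest level of the 4 genotypes. The other receptors went opposite ways in the letters, with GID1A at 0.23 and -0.16 and GID1B at 0.16 and -0.64. The fourth gibberellin gene tested, of 27 written, was SLY1, an F-box protein that acts on DELLA repressors. It differed by 0.36 and 0.01. Both tested cytokinin response regulators, ARR15 and RR16, were higher in both letters, by 0.49 and 0.2 and by 0.11 and 0.44. Of 4 auxin genes IAA30 and IAA18 were higher in both letters, and GH3.17 and GH3.3 went opposite ways. Among all tested probe sets 27.5% were higher in both letters.

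Enzyme and transporter families gave no count of passing genes either. Serine carboxypeptidase-like genes had a median of 0.15 over 14, with 4 higher and none lower in both letters. The shares over all tested probe sets were 27.5% higher and 23.4% lower. UDP-glycosyltransferases, which attach sugars to hormones and flavonoids, had a median of -0.03 over 23, with 5 higher and 8 lower in both letters, and UGT72E1 had 6.51 and 7.21 in the double line against 5.78 and 6.8 in rGRF3. Of 9 beta-glucosidases 2 were lower in both letters, among them BGLU33 at 6.29 and 6.85 in the double line and 7.14 and 7.1 in rGRF3. Of 6 AGAMOUS-like genes, which encode MADS-box transcription factors, 4 were lower in both letters, and AGL16 had 6.64 and 6.21 in the double line against 7.05 and 6.83 in rGRF3. Of 4 SWEET sugar transporter genes SWEET2 was higher in both letters.

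**Figure D4:**
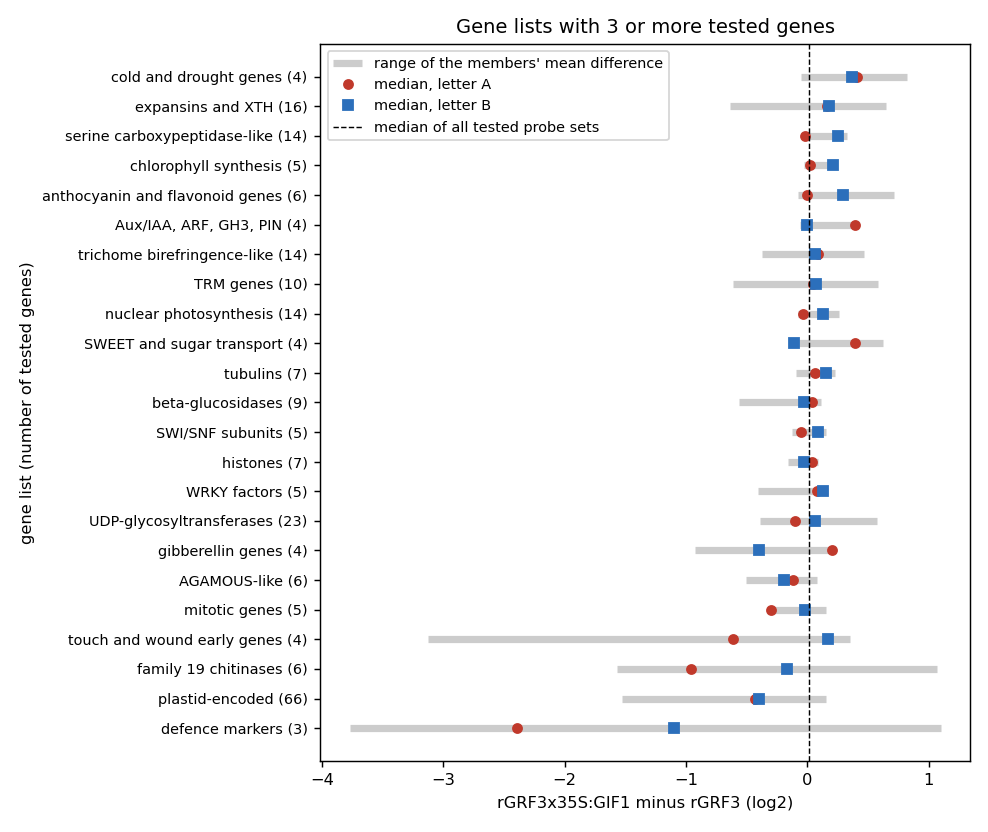
Median difference between rGRF3x35S:GIF1 and rGRF3 (log2) for gene lists with at least 3 tested genes, in letter A (circles) and letter B (squares), with the range of the members' mean differences in grey and the median of all tested probe sets, 0.01, dashed. The plastid-encoded list is at -0.43 and -0.4, and the cold and drought list lies highest at 0.41 and 0.37.

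Whether a signal moved by another amount when 35S:GIF1 was added to rGRF3 than when it was present in Col-0 was asked with an interaction term. It takes the effect in the rGRF3 background and subtracts the effect in the Col-0 background. No probe set passed in limma (0.0% of those tested, lowest adjusted p = 1.0, or 0.998 with the block), and 123 had an unadjusted p under 0.05, or 480 with the block. The Col-0 values carry more decimals than those of the other genotypes, for a reason not given in the sources used here, and the interaction would hold any difference in their processing. For 246103_at the interaction was -1.15 ± 0.38 (SE, unadjusted p = 0.0234 in limma, adjusted p = 1.0), with a difference of 4.72 in rGRF3 and of 6.14 and 5.61 in the letters in Col-0. The lowest unadjusted p among named genes with a positive interaction was that of AT5G04670, at 0.000551 in limma. It was higher by 0.98 and 1.04 in the rGRF3 background and lower, at -0.47 and -0.12, in the Col-0 background. Its level was 5.64 and 5.9 in 35S:GIF1 and 6.11 and 6.02 in Col-0, so the rGRF3 arrays were the lowest of the 8. GID1C had an interaction of -1.18 ± 0.36.

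The comparison of 35S:GIF1 with Col-0 shares no array with that of the double line with rGRF3. In it 23.7% of tested probe sets were higher and 26.8% were lower in both letters. Of the 26 probe sets at least 2-fold lower in the double line than in rGRF3, 14 (53.8%) were also lower in both letters in 35S:GIF1 than in Col-0, 1 was higher in both and 11 went opposite ways. Among the named ones PDF1.2, PDF1.2b, STZ, AT2G43590, psaC and psbB were lower in both letters of both comparisons. Of the 4 at least 2-fold higher, 3 were also higher in both letters in 35S:GIF1 than in Col-0. Related genes among them may share signal, and no test was made of these counts. Across the tested probe sets the mean differences in the 2 backgrounds had a Pearson correlation of 0.235, or 0.21 without 246103_at. AT3G29410, AT5G55720, AT1G66100 and AT1G15840 were higher in both letters in the rGRF3 background and lower in both in the Col-0 background.

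**Figure D5:**
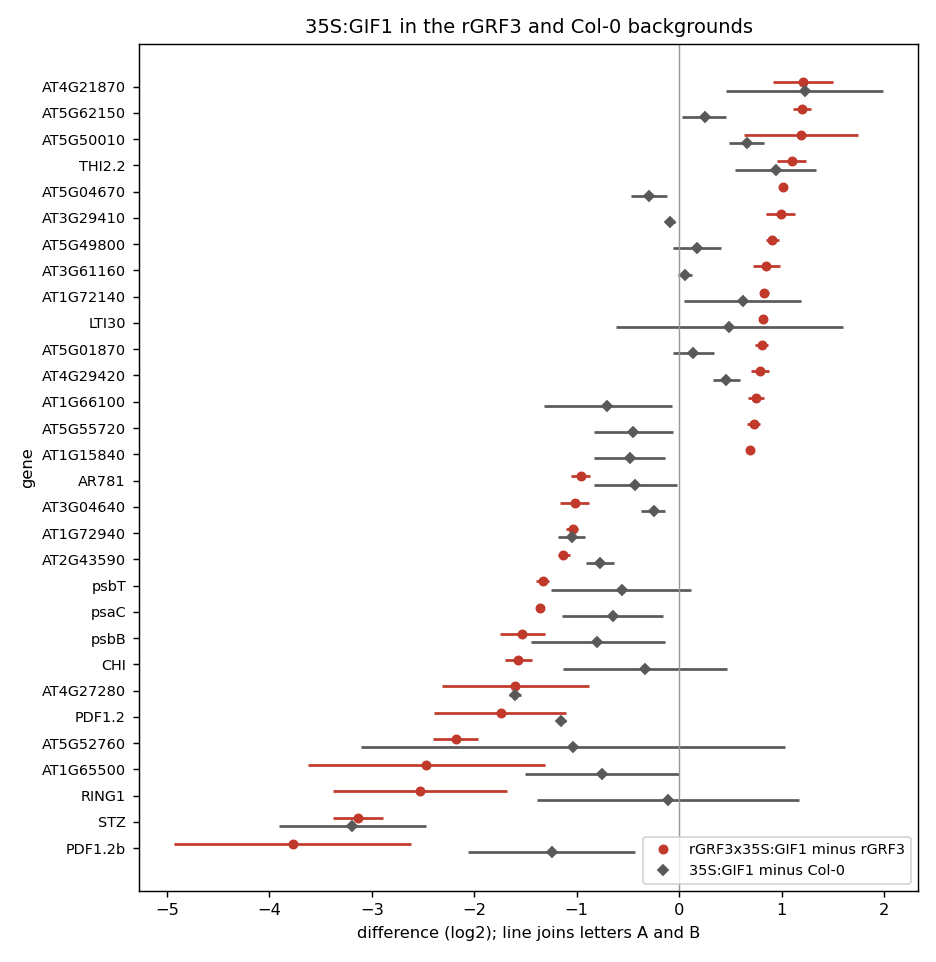
Difference made by 35S:GIF1 in the rGRF3 background (rGRF3x35S:GIF1 minus rGRF3, red circles) and in the Col-0 background (35S:GIF1 minus Col-0, grey diamonds) on the log2 scale for the 15 highest and 15 lowest named genes, with a line joining letters A and B. STZ is at -3.13 in rGRF3 and at -3.91 and -2.47 in the letters in Col-0, while AT5G04670 is at 1.01 in rGRF3 and at -0.47 and -0.12 in Col-0.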

How the data were processed

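The authors deposited log2 signals, and the submitters' processing notes name GCRMA and limma. Their versions and a genome build are not given in the sources used here. Values ran from a floor of 2.12 to 15.55. GCRMA compresses low signals towards that floor, so differences between low values depend on it.

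Of 22810 probe sets 64 are controls, 13513 have 1 gene in the platform annotation, 503 several and 8730 none listed. Of the first 13436 matched the TAIR10.1 gene table. Tested probe sets reached a log2 signal of 4 on 2 or more arrays. Group means of all 8 arrays were fitted with limma 3.58.1 in R 4.3.3 (lmFit, contrasts.fit, eBayes, no trend, not robust), with Benjamini-Hochberg adjustment within each contrast at 0.05. The fit was also run on simulated data with independent normal noise. Its outcome is not given here, and no result above rests on it. Tables were made with Python 3.11.15, numpy 2.4.6 and pandas 2.3.3, and plots with matplotlib 3.10.9. The number of arrays limits the precision.

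The pairing of arrays by letter comes from the data: A minus B deviations correlated between 0.59 and 0.75 over 6 pairs of genotypes, and at 0.71 between these lines. The letter as a replicate block was an alternative and gave the same call on all 8 arrays.

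The comparison, its members and the gene lists were chosen with earlier results of these data known. Genes were named by a rule: probe sets that passed, the 15 single-gene probe sets per direction with the largest smaller letter difference, the 2 leading members of each list, the 5 lowest interaction p-values per direction, and 4 genes that earlier results singled out. Other members are named where a count is described, after their values were seen. The probe set with the highest mean stands for a gene with several. Of 27 lists, those of jasmonate genes and of published GIF1 targets had no tested named member, and lists of cytosolic ribosomal proteins, SAUR, heat shock and mitochondrial genes were not drawn here.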

Additional observations from a re-analysis of the deposited data

Results flagged for a closer look

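The genes here were singled out because adding 35S:GIF1 gave 1 sign in both letters in rGRF3 and the opposite sign in both letters in Col-0. Differences of any size counted. In Col-0 XTH19 in letter B and UGT80B1 in letter A were at 0.0 when rounded, and XTH18 in letter B was at 0.06. None of these differences passed the interaction test (limma, adjusted p = 1.0). A control and an untested gene were singled out because 1 array of the double line stood above the Col-0 arrays. The values below are interactions, in log2.

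Genes with a positive interaction, higher in rGRF3 and lower in Col-0, were DFR at 1.91, AT1G66100 at 1.45, AT5G01740 at 1.31, AT5G04670 at 1.3, AT5G55720 and AT1G15840 at 1.17 each, AT3G29410 and AT1G27200 at 1.08 each, SWEET2 at 1.07, CHIL at 1.04, AT1G62250 at 0.81, UGT80B1 at 0.72, AT1G79620 at 0.7, LHCB4.3 at 0.61, CHLI2 at 0.24 and HTB4 at 0.14. AT5G01740 had 5.25 and 5.42 in the double line, against 4.47 and 4.97 in rGRF3, and 4.25 and 4.0 in 35S:GIF1, against 4.97 and 4.68 in Col-0.

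Genes with a negative interaction were AT1G01830 at -0.63, AT5G56980 at -0.97, XTH18 at -1.93 and XTH19 at -2.12. For both XTH genes the Col-0 background gave its difference in letter A, with XTH19 at 7.71 and 4.17 in 35S:GIF1, against 4.74 and 4.17 in Col-0.

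The 25S ribosomal RNA control stood at 10.9 on array A of the double line. SAG29, which did not enter the tests, stood at 5.99 on array B of the double line, where the 2 Col-0 arrays were at 2.12.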

How the results depend on the processing

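With the 4 arrays of the 2 lines alone 0 probe sets passed, and the difference of 246103_at stayed at 4.72 with an adjusted p of 0.691. With the replicate block on those 4 arrays 1 probe set passed, 246103_at, with an adjusted p of 0.0253. Without the filter it stayed at 4.72 with an adjusted p of 0.156, and 3 other probe sets passed (253781_at, 253355_at and 261586_at), whose differences were -0.16, 0.12 and -0.1 and whose values were nearly the same on all arrays. Leaving out any 1 array kept the difference of 246103_at between 4.46 and 4.99, and its call did not hold, as given above. Fewer arrays then estimate the spread, and leaving out an array of these lines also leaves 1 array for that line's mean. Where a genotype keeps 1 array, that array is taken to vary like the others. On all 8 arrays 1 probe set passed with the replicate block, as without it, and 0 interactions passed in either fit. Requiring 1.5-fold in both letters gave 40 higher and 77 lower probe sets in place of 4 and 26. Requiring a log2 signal of 6 on 2 or more arrays left 1 higher probe set. The plastid-encoded median ran from -0.86 to -0.07 without 1 array, and 16 of 24 list medians changed sign in some such setting.

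246103_at, whose call was lost in several settings as given above, is not among the 78 named probe sets checked here. None of these 78 passed in the main fit, where their lowest adjusted p in limma was 0.438. Keeping their side of the threshold therefore says little, and the checks bear on direction. Of 1227 checks on them, 1181 kept direction and side of the threshold. The other 46 changed sign, all without 1 array of these lines, which sets an A against a B array. Their ranges of the log2 difference were AT5G50010 (-0.04 to 2.42), AT1G72140 (-0.12 to 1.79), LTI30 (-0.32 to 1.96), DFR (-1.76 to 3.18), SWEET2 (-0.2 to 1.44), COR15A (-1.06 to 1.96), ARR15 (-0.42 to 1.11), CHIL (-0.52 to 1.16), RR16 (-0.21 to 0.76), LHCB4.3 (-0.33 to 0.79), TUB5 (-0.04 to 0.5), PORB (-0.23 to 0.55) and BSH (-0.23 to 0.53). They were also AUR2 (-0.01 to 0.3), CHLI2 (-0.04 to 0.29), SWEET17 (-0.63 to 0.88), HTB4 (-0.07 to 0.25), AT4G20830 (-0.05 to 0.23), IAA18 (-0.06 to 0.16), PRL (-0.42 to 0.39), SWI3A (-0.41 to 0.15), HIS1-3 (-1.54 to 1.22), BGLU15 (-0.56 to 0.23), WRKY53 (-1.17 to 0.34), XTH18 (-1.26 to 0.04) and XTH19 (-1.4 to 0.13). The direction of these genes rests on pairing the arrays by letter, and signals near the floor limit differences further.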
